A study of Homo sapiens with 6 samples.

Results

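The genes described here are 10 secreted signals and receptors of the chemokine and interleukin-1 (IL1) systems in a human breast cancer line. They were chosen by symbol from a table of 20532 genes: the CXC chemokines CXCL1, CXCL2, CXCL3, CXCL8 and CXCL16, the CC chemokine CCL20, the cytokines IL1A and IL1B, and the receptors CXCR4 and ACKR3. All 10 had enough reads to be tested. RNA came from MDA-MB-231 M3, a bone-metastatic derivative of the triple-negative line MDA-MB-231, in 3 control libraries (untreated or control cells, with no further detail in the labels) and 3 libraries of cells in which an siRNA had lowered PRMT1 (siPRMT1). PRMT1 is the main enzyme that adds asymmetric dimethyl marks to arginine in proteins. The labels call the samples biological replicates, but give no time after transfection, no siRNA sequence and no statement of separate cultures or transfections. The p-values therefore cover only how far these libraries differ within a group, and part of that may be technical.

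Chemokines are small secreted proteins that guide cells through G-protein-coupled receptors. CXCL1, CXCL2, CXCL3 and CXCL8 (interleukin-8) share the receptor CXCR2 and attract neutrophils, and their genes respond to the transcription factor NF-kB. IL1A and IL1B bind a receptor made of IL1R1 and IL1RAP, whose signal runs to NF-kB and on to the same chemokine genes. CXCR4 is the receptor for CXCL12 and is known for its role in the spread of breast cancer cells to bone, and ACKR3 binds the same ligand and removes it.

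Total counts ran from 16968563 to 20545995 per library. Counts of PRMT1 itself were 2991 to 3160 per control library but 181 to 218 after the siRNA, a 12.3-fold lower level (scaled). Most genes differed between the groups: 45% of 13710 tested genes fell and 44.3% rose (edgeR's quasi-likelihood test, Benjamini-Hochberg adjusted p under 0.05), and the groups did not overlap for 89.1%. The fold change also moved with base composition. The median log2 fold change (siPRMT1 minus control) was -1.02 for the 2256 genes whose transcripts are less than 40% GC and 0.95 for the 2168 genes at 60% or more. The share of reads from the mitochondrial genome was 5.001% to 5.09% in control and 8.64% to 8.74% in siPRMT1 libraries. The part of base composition and of this share in the results was not tested, and a value from a second fit, with offsets for GC content and transcript length, stands beside the main value of each of the 10 genes. The line's markers VIM, CD44, CAV1, EGFR, KRT18 and KRT8 were all present, while of 3 luminal receptors ESR1 had 5 counts and PGR 1 over all libraries, and ERBB2 stood at 61.3 CPM in control and 72.9 CPM in siPRMT1 libraries. Of 8 leukocyte markers 7 had counts, at a summed level of 204 to 209 CPM (read counts scaled to 1e6 per library, with TMM factors) in control and 378 to 384 CPM in siPRMT1 libraries. Nearly all of this was CD68 (201 and 372 CPM), a lysosomal protein gene, whereas PTPRC had 11 counts and CD3E 2 over all libraries.

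Of all tested genes, 45% fell and 44.3% rose. Of the 10 genes, 7 fell in the siPRMT1 libraries, 1 rose and 2 did not pass the test. Their median log2 fold change was -0.56, against -0.0082 for all tested genes. Falls of at least 2-fold were found for 3 of them, CXCL8, CXCL3 and ACKR3, where 21% of all tested genes fell that far. With the GC and length offsets 7 fell and none rose (40.1% and 40.4% of all tested genes), and the median was -0.61 against -0.0041. The fold change had the same sign without and with the offsets for 8 of the 10 genes, all but CXCL16 and CCL20.

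**Figure D1:**
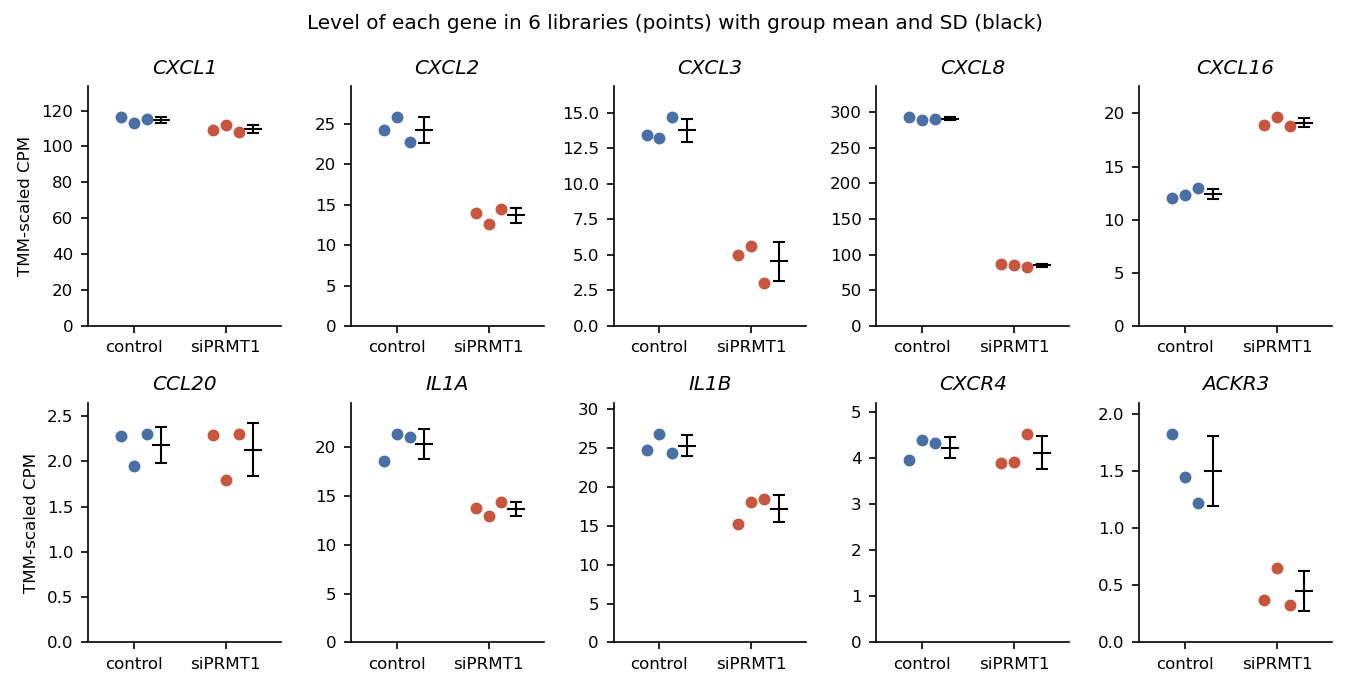
Each panel shows 1 gene, with the TMM-scaled CPM (read counts per 1e6 reads, scaled between libraries by the trimmed mean of M-values) of 3 control and 3 siPRMT1 libraries as points and the group mean with its SD in black, on axes that start at 0. The groups overlap for CCL20 and CXCR4 and are separate for the other 8 genes, with a narrow gap for CXCL1 (112.8 against 112.03 CPM at the nearest points). Of all tested genes, 89.1% had separate groups.

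Among the ligands of CXCR2 the response was uneven: CXCL8 fell 3.42-fold, CXCL3 2.98-fold and CXCL2 1.78-fold, and CXCL1 was 1.05-fold lower. With the GC and length offsets the log2 fold changes were -1.148 for CXCL8, -1.88 for CXCL3, -1.13 for CXCL2 and -0.39 for CXCL1, and the values of CXCL8 and CXCL2 lay close together. CXCL1, CXCL2 and CXCL3 are close copies of each other, and the stretch just before their start sites is nearly the same. These 4 promoters are shown because they share the core of a kB element, the kind of site that NF-kB binds. The full consensus was matched in CXCL1, CXCL2 and CXCL3, and only the core in CXCL8, with other flanking bases. The sequences are from RefSeq (GRCh38.p14), 120 bases ending at the base before the start site, 5′ to 3′ on the gene's strand. Capitals mark matches to the kB consensus or to its core GGAATTTCC and, in CXCL8, to TATAAA.
CXCL1 (chr4:73869273-73869392, plus strand): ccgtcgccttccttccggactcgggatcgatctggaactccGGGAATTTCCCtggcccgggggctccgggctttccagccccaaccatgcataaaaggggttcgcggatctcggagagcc
CXCL2 (chr4:74099196-74099315, minus strand): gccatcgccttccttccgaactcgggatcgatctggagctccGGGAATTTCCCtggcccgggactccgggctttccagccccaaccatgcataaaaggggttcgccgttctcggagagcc
CXCL3 (chr4:74038690-74038809, minus strand): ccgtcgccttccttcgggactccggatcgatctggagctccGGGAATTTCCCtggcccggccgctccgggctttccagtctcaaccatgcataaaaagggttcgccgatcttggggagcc
CXCL8 (chr4:73740449-73740568, plus strand): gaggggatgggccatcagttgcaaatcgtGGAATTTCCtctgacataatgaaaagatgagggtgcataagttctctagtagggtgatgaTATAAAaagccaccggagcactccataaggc

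Aligned with each other, the CXCL1 and CXCL2 windows were identical at 113 of 119 bases (95%), CXCL1 and CXCL3 at 109 of 120 (90.8%) and CXCL2 and CXCL3 at 107 of 119 (89.9%). The core GGAATTTCC lay at positions -78 to -70 in CXCL1 and CXCL3, -77 to -69 in CXCL2 and -91 to -83 in CXCL8. Among 35116 RefSeq promoters, searched over the 250 bases before the start on both strands, 0.413% held this core, and 9.96% held the kB consensus, which overlaps it in CXCL1, CXCL2 and CXCL3. The core was set to the form that these CXC genes carry, so its presence in them was fixed by that choice. Its share gives only how often the letters occur. The AP-1 motif TGANTCA was found in the CXCL8 promoter at -137 to -131 (6.57% of all promoters), and TATAAA, searched on the gene's strand, at -31 to -26 (6.80%). CCL20, not shown, also matched the kB consensus, at -79 to -70 on the opposite strand and without the core. Its promoter held TATAAA at -29 to -24. TGANTCA was also found in IL1A. TATAAA lay at -239 to -234 in an IL1A promoter and at -30 to -25 in a CXCR4 promoter, and both genes have other listed promoters without it. IL1B matched none of these motifs. A match describes letters and not a bound site.

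CXCL8 (ENSG00000169429; hg38, chromosome 4, 73740519 to 73743715, plus strand; 4 exons) was read 6411, 5772 and 6169 times in control and 1407, 1564 and 1250 times in siPRMT1 libraries. In CPM these were 293, 288 and 290.3 against 87.3, 85.1 and 82.1. Every siPRMT1 library lay below every control library by a factor of more than 3. The mean fell from 290.5 ± 2.10 to 84.8 ± 2.60 CPM (SD, n = 3 each), with a log2 fold change of -1.78 (SE 0.0250; adjusted p = 2.75e-271, edgeR) or 3.42-fold lower, at percentile 7.29 of all tested genes' fold changes. The offsets gave a smaller log2 fold change of -1.148 (adjusted p = 4.08e-41) for this AT-rich transcript (GC content 32.9%).

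CXCL3 (ENSG00000163734; chromosome 4, 74036589 to 74038807, minus strand; 4 exons) was measured at 13.4, 13.2 and 14.7 CPM in control and 5.03, 5.60 and 3.02 CPM in siPRMT1 libraries. The groups were far apart, and the third siPRMT1 library was the lowest. The fall was 2.98-fold (-1.57 on the log2 scale, SE 0.0992; adjusted p = 2.91e-46, edgeR), and -1.88 with the offsets. Without that library it was -1.37.

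CXCL2 (ENSG00000081041; chromosome 4, 74097040 to 74099196, minus strand; 4 exons) lay at 24.2, 25.8 and 22.7 CPM in control and 14.02, 12.6 and 14.5 CPM in siPRMT1 libraries. All siPRMT1 values were below all control values, and the gene fell 1.78-fold (log2 fold change -0.83, SE 0.0655; adjusted p = 5.15e-32, edgeR). With the offsets the change was -1.13.

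CXCL1 (ENSG00000163739; chromosome 4, 73869393 to 73871308, plus strand; 4 exons) had 116, 112.8 and 115 CPM in control and 109, 112.03 and 108 CPM in siPRMT1 libraries. The lowest control value and the highest siPRMT1 value nearly touch. The log2 fold change of -0.064 (SE 0.0284; adjusted p = 0.0271, edgeR) passed the threshold but is a 1.05-fold difference. The call was lost with DESeq2 (adjusted p = 0.143), with RLE scaling (adjusted p = 0.0512) and without any 1 of 4 libraries (adjusted p from 0.0559 to 0.113 without the first or the third control library, or the first or the third siPRMT1 library). The offsets gave a larger change of -0.39 (adjusted p = 2.71e-19), and it was -0.38 with scaling by library size alone.

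Ratios of genes within a library do not depend on the scaling between libraries. CXCL8 had 2.52, 2.56 and 2.52 reads per read of CXCL1 in control cells against 0.801, 0.759 and 0.760 after the siRNA. In reads as counted, the more abundant of the pair thus switched in all 3. The log2 difference was -1.71, and -0.76 with the offsets. The latter is smaller in size than the control mean log2 ratio of 1.34, so the switch is stated only without the offsets. CXCL1 had 8.66, 8.55 and 7.85 reads per read of CXCL3 in control and 21.7, 20 and 35.8 in siPRMT1 libraries, a log2 difference of 1.58. The ratio of CXCL1 to CXCL2 moved by 0.76 and that of CXCL2 to CXCL3 by 0.82, or 0.41 without the third library of each group. The groups did not overlap for any of these 4 ratios, and each gave p = 0.1 in an exact two-sided permutation test, the smallest value that 3 against 3 allows (adjusted p = 0.12 over 6 ratios). These ratios share genes and are not independent of each other. Of all tested genes taken singly, 89.1% had separate groups, and the share among ratios of other gene pairs was not computed.

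**Figure D2:**
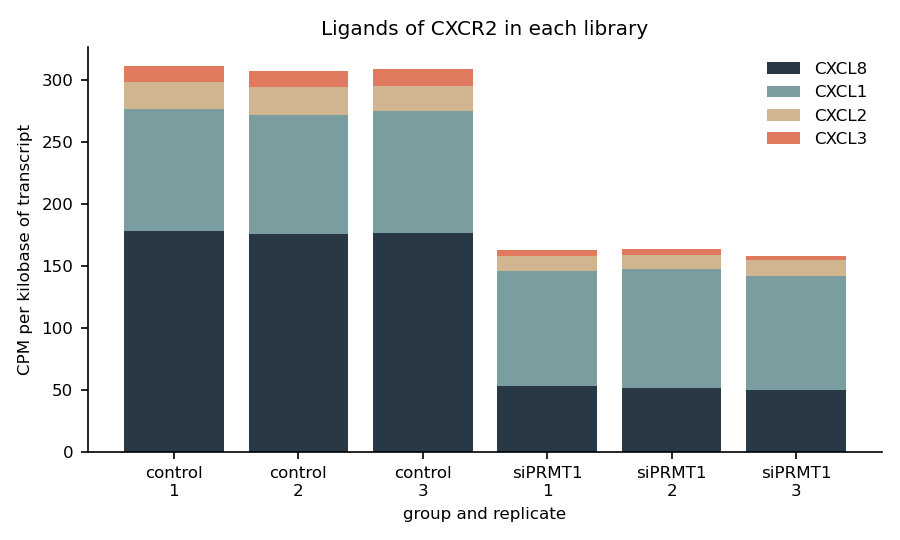
Stacked bars show the level of CXCL8, CXCL1, CXCL2 and CXCL3 per kilobase of canonical transcript in each of the 6 libraries. The sum lay between 307 and 311 CPM per kilobase in control and between 158 and 164 in siPRMT1 libraries, and the CXCL8 share was at least 57.2% in each control library and at most 32.6% in each siPRMT1 library.

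Per kilobase of transcript, the sum of these 4 ligands went from 309 ± 2.12 to 162 ± 3.27 CPM per kilobase (SD, n = 3 each). As counted, without the offsets, CXCL8 made up 57.2% ± 0.0265 of that sum in control and 32.0% ± 0.528 in siPRMT1 libraries. Their receptors were not detected in these cells: CXCR1 and CXCR2 had no count in 112151075 reads, which allows a level of up to 0.0267 CPM over all libraries (3 counts, for counting error only). Because CXCL1, CXCL2 and CXCL3 are alike, reads could be exchanged between them. Their canonical transcripts were 90.9% identical between CXCL1 and CXCL2, 81.7% between CXCL1 and CXCL3 and 83.6% between CXCL2 and CXCL3. Of all stretches of 75 bases, 0.273% in CXCL1, 2.50% in CXCL2 and 2.30% in CXCL3 were found exactly in a transcript of another gene, and no stretch of 150 bases, the length of a read, was.

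On chromosome 4, CXCL8 and CXCL1 lie on the plus strand and CXCL3 and CXCL2 on the minus strand of a cluster that also holds CXCL6, PF4V1, PF4, PPBP and CXCL5. CXCL6, PF4V1 and PPBP had no count in any library. CXCL5 had 66 counts in all and fell by 0.85 on the log2 scale (adjusted p = 0.0274, edgeR), to 0.398 from 0.730 CPM, but with the offsets it stood at -0.23 (adjusted p = 0.584). PF4, the platelet factor 4 gene, rose by 0.92 from 0.504 to 0.972 CPM, and its value with the offsets was 0.65 (adjusted p = 0.0560). Its 80 counts overlap ENSG00000288796 (78 counts) and cannot be told apart from it. Neither call was thus kept under the offsets.

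CXCL16 and CCL20 are chemokines of other receptors. CXCL16 (ENSG00000161921; chromosome 17, 4733533 to 4739922, minus strand; 6 exons) is made as a membrane protein, binds CXCR6 and is released by the protease ADAM10. It had 12.1, 12.3 and 12.9 CPM in control and 18.9, 19.6 and 18.9 CPM in siPRMT1 libraries, with no overlap. It was the only 1 of the 10 genes that rose, by a log2 fold change of 0.62 (SE 0.0698; adjusted p = 1.03e-17, edgeR). Under the offsets the value was -0.079 (adjusted p = 0.289), on the other side of 0, and with scaling by library size alone it was 0.31. Its transcript has the highest GC content of the 10 (57.4%), and it overlaps ZMYND15 and MED11 on the opposite strand, so reads could be shared if strand was not used in counting. ADAM10 fell from 175 ± 5.20 to 41.6 ± 2.10 CPM (log2 fold change -2.07, or -0.62 with the offsets), and the receptor CXCR6 had 77 counts over all libraries.

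CCL20 (ENSG00000115009; chromosome 2, 227805739 to 227817564, plus strand; 4 exons), the ligand of CCR6, had 2.28, 1.95 and 2.31 CPM in control and 2.30, 1.79 and 2.30 CPM in siPRMT1 libraries. The groups overlapped. The log2 fold change was -0.049 (95% interval from -0.42 to 0.32; adjusted p = 0.806, edgeR), and the 33 to 50 counts per library leave room for a change of that size in either direction. Under the offsets it stood at 0.20 (adjusted p = 0.323). CCR6 had 7 counts in all.

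Both IL1 genes fell by similar factors. IL1A (ENSG00000115008; chromosome 2, 112773925 to 112784493, minus strand; 7 exons), an alarmin that acts from the membrane or after cell damage, had 18.5, 21.3 and 20.99 CPM in control and 13.7, 12.9 and 14.3 CPM in siPRMT1 libraries. IL1B (ENSG00000125538; chromosome 2, 112829751 to 112836779, minus strand; 7 exons), which is secreted after cleavage by caspase-1, had 24.7, 26.8 and 24.4 CPM in control and 15.2, 18.1 and 18.4 CPM in siPRMT1 libraries. Neither gene's groups overlapped. The log2 fold changes were -0.57 for IL1A (SE 0.0683; adjusted p = 7.40e-16) and -0.55 for IL1B (SE 0.0613; adjusted p = 6.38e-18, edgeR). Under the offsets they parted, at -0.20 for IL1A (adjusted p = 0.00742), whose transcript has a GC content of 38.7%, and -0.83 for IL1B (adjusted p = 1.09e-17), at 46.2%. The number of IL1A reads per IL1B read was 0.7505, 0.795 and 0.861 in control and 0.902, 0.717 and 0.779 in siPRMT1 libraries (log2 difference -0.0098, p = 1 in the exact two-sided permutation test). Under the offsets this difference was 0.63, so the ratio of the genes depends on that correction. Their neighbour CKAP2L, a mitotic spindle gene, fell by 0.61.

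Of the receptor genes ACKR3 fell and CXCR4 did not pass the test. CXCR4 (ENSG00000121966; chromosome 2, 136114349 to 136119177, minus strand; 2 exons) had 87, 88 and 92 counts in control and 63, 72 and 69 in siPRMT1 libraries, or 3.97, 4.398 and 4.33 against 3.91, 3.92 and 4.53 CPM. The siPRMT1 range encloses the control range. The log2 fold change was -0.043 (95% interval from -0.31 to 0.22; adjusted p = 0.762, edgeR) and -0.24 with the offsets (adjusted p = 0.0944). Scaling by library size alone, which moved the median of all genes by -0.317, gave -0.36 (adjusted p = 0.00881).

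ACKR3 (ENSG00000144476; chromosome 2, 236567787 to 236582354, plus strand; 2 exons), formerly CXCR7, was the least abundant of the 10, with 40, 29 and 26 counts in control and 6, 12 and 5 in siPRMT1 libraries. In CPM this was 1.83, 1.45 and 1.22 against 0.372, 0.653 and 0.328, with no overlap. It fell 3.22-fold (log2 fold change -1.69, SE 0.304; adjusted p = 6.08e-08, edgeR; -1.93 with the offsets). The SE is the widest of the 10 genes, and leaving out 1 library at a time gave values from -2.08 to -1.51. Reads of CXCR4 per read of ACKR3 went from 2.18, 3.03 and 3.54 in control to 10.5, 6 and 13.8 in siPRMT1 libraries (log2 difference 1.74, p = 0.1, exact two-sided permutation test). Their shared ligand CXCL12 had no count in any library, again allowing up to 0.0267 CPM.

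**Figure D3:**
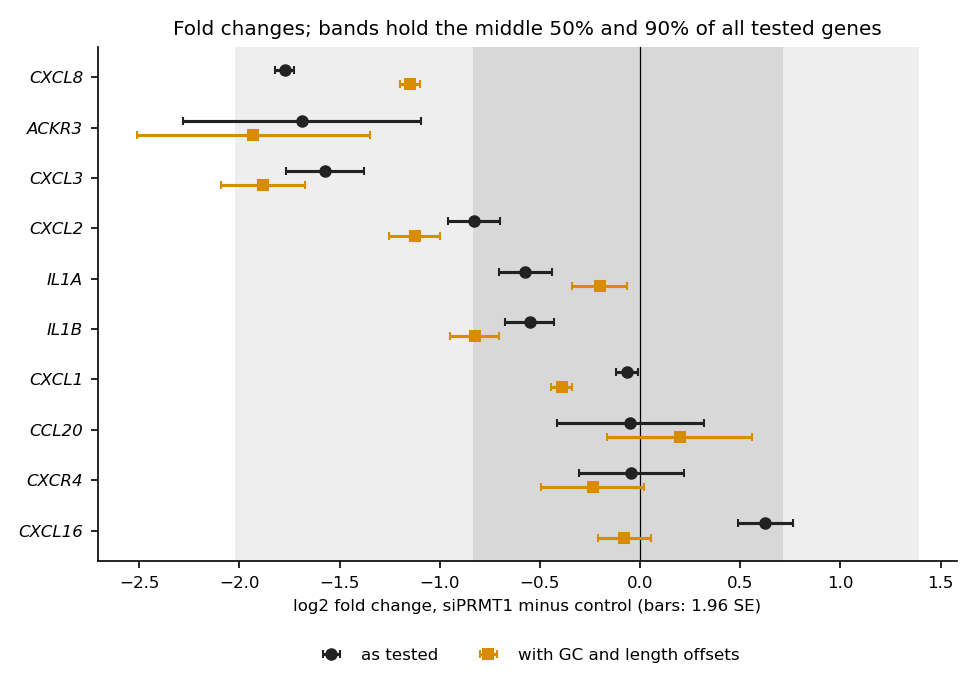
Points are log2 fold changes (siPRMT1 minus control) of the 10 genes as tested (black circles) and with offsets for GC content and transcript length (orange squares), with bars for the 95% interval, and the grey bands hold the middle 50% and 90% of all tested genes. CXCL8, ACKR3 and CXCL3 lie lowest both ways, and CXCL16 moves from 0.62 to -0.079.

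Set in order per kilobase of transcript, the control libraries held most CXCL8 (177 CPM per kilobase), then CXCL1 (97.7), CXCL2 (21.8), IL1B (16.8), CXCL3 (12.8), IL1A (10.1), CXCL16 (5.35), CCL20 (2.61), CXCR4 (2.54) and ACKR3 (0.744). Only CCL20 and CXCR4 overlapped as neighbours in that order. In the siPRMT1 libraries the order, taken without the offsets, began with CXCL1 (93.4), CXCL8 (51.7), CXCL2 (12.3) and IL1B (11.4), where CXCL2 and IL1B overlapped. CXCL16 (8.23), IL1A (6.77) and CXCL3 (4.23) followed, then CCL20 (2.55) and CXCR4 (2.47), which overlapped, and ACKR3 (0.224).

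The messages of CXCL1, CXCL2, CXCL3, CXCL8, IL1A and IL1B carry AU-rich elements in the 3' UTR, repeats of ATTTA through which cytokine messages are stored or degraded. The 30 bases with most ATTTA are shown for each. These genes are shown because they hold at least 5 copies, so their sharing of the motif was fixed by that choice. The sequences were read from GENCODE release 44 transcripts on hg38, with ATTTA in capitals.
CXCL1 (chr4:73870665-73870694, plus strand): cttaggagaagtcttctATTTATTTATTTA
CXCL2 (chr4:74097590-74097619, minus strand): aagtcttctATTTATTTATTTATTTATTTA
CXCL3 (chr4:74037090-74037119, minus strand): ttacgagggttctacttATTTAtgtATTTA
CXCL8 (chr4:73743108-73743137, plus strand): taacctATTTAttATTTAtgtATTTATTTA
IL1A (chr2:112774424-112774453, minus strand): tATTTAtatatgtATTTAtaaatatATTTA
IL1B (chr2:112830003-112830032, minus strand): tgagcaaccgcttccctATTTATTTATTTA

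ATTTA occurred 10 times in the 3' UTR of CXCL2, 9 times in CXCL8, 7 in CXCL3, 6 each in CXCL1 and IL1B and 5 in IL1A, against 3 in CCL20, 2 in ACKR3 and 1 each in CXCL16 and CXCR4. Per kilobase this was 13.97 in CXCL2, 10.4 in CXCL3, 9.84 in IL1B, 7.77 in CXCL1, 7.19 in CXCL8, 6.34 in CCL20 and 4.38 in IL1A, where the median of tested genes was 1.64, and from 1.03 to 2.50 in CXCL16, CXCR4 and ACKR3. At least 5 copies were present in 32.5% of tested genes. The longer form TTATTTATT was present 5 times in CXCL2, 3 in CXCL1, 2 in IL1B and 1 each in CXCL3 and CXCL8. It was absent from IL1A, CCL20, CXCL16, CXCR4 and ACKR3, and it occurred in 9.22% of 13554 tested genes with a 3' UTR. Those 1249 genes had a median log2 fold change of -0.79, but also longer 3' UTRs (median 3103 bases against 1158 in genes without it), and with the GC and length offsets their median was -0.15.

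The other genes of these systems were read from 8 lists of 138 genes, of which 92 were tested. Of these 49 fell, 37 rose and 6 did not pass, with a median of -0.21, and 19 fell and 11 rose at least 2-fold. Of all tested genes, 45% fell and 44.3% rose in that fit. At least 2-fold, 2881 of all 13710 tested genes fell (21%) and 2095 rose. With the GC and length offsets 46 of the list genes fell and 26 rose, where 40.1% of all tested genes fell and 40.4% rose. Whether any list differs from other genes was not tested. In the following sentences a pair of values in parentheses gives the log2 fold change as tested and then under the offsets. Where the second is far smaller or has the other sign, the direction or size rests on the fit without them. Besides the overlaps given with single genes, the spans of IL18, ITCH, MIF, NFKBIZ, PELI3, TAB2 and TIA1 also overlap another gene, so some of their reads may be uncertain.

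Of 31 other chemokines 9 were tested, 5 fell and 3 rose, and under the offsets 4 fell and 1 rose. The interferon-induced CXCL11, which overlaps ART3 on the other strand, fell from 31.6 to 16.2 CPM (-0.96 and -0.49). The mucosal chemokine CCL28 (-0.83 and -0.23) and the membrane-bound CX3CL1 (-0.65 and -1.24) fell, while the eotaxin gene CCL26 rose (0.74 and 0.12, the latter not called). CCL2, the monocyte attractant, named here after its value was seen, fell from 3.09 to 1.34 CPM (-1.19 and -1.29). Of 21 other receptors 7 were tested, 1 fell and 3 rose. CXCR5 rose from 45.03 ± 1.36 to 98.7 ± 3.66 CPM (1.14 and 0.80), but its span overlaps that of BCL9L on the opposite strand, and without a stated strand setting the reads of the pair cannot be told apart. CCRL2, a receptor that binds chemerin, rose as well (0.43 and 0.16).

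Both chains of the IL1 receptor fell. IL1R1 fell from 55.5 ± 2.91 to 14.1 ± 0.395 CPM (-1.98, SE 0.0538; adjusted p = 4.40e-147, edgeR), and IL1RAP from 13.7 ± 0.637 to 2.79 ± 0.533 CPM (-2.30, SE 0.111; adjusted p = 3.00e-69). With the offsets both were -1.29. The receptor antagonist gene IL1RN, named after its value was seen, fell from 14.5 to 9.77 CPM (-0.57 and -1.02). IL18, another cytokine of the family, rose from 28.5 ± 0.624 to 63.4 ± 2.94 CPM (1.152 and 1.002). The gene of its soluble inhibitor, IL18BP, rose from 30.2 ± 0.924 to 81.9 ± 1.85 CPM (1.44 and 0.61), with a span that overlaps NUMA1. Of 7 tested members of this list 3 fell and 3 rose, with a median of -0.070. Under the offsets 4 fell and 2 rose, with a median of -0.32.

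Downstream of the IL1 receptor 11 of 16 relay genes fell and 5 rose, and under the offsets 9 fell and 3 rose. MAP3K7, the kinase TAK1, fell from 37.1 ± 0.598 to 11.5 ± 1.32 CPM (-1.68 and -0.69). Its partner TAB2 (-1.01 and -0.34), the inhibitory kinase IRAK3 (-1.38 and -0.20) and the ubiquitin-conjugating cofactor UBE2V1 (-0.94 and -0.87) fell, the last with a span that overlaps a readthrough gene with PEDS1. IRAK1 (0.26 and -0.39) and PELI3 (0.77 and -0.076) rose as tested but lay below 0 under the offsets, and IRAK1 stood at -0.060 with scaling by library size alone.

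Among 15 maturation and shedding genes 8 fell and 7 rose, and under the offsets 7 fell and 5 rose. The calpain subunit CAPNS1 (1.22 and 0.039) and the catalytic CAPN1 (0.71 and 0.012, the latter not called), of the protease that processes IL1A, rose, whereas CAST, their inhibitor, which overlaps ERAP1 and PCSK1, fell (-0.78 and -0.85). GSDMD, the pore through which IL1B leaves cells, rose (1.45 and 0.23), as did the inflammatory caspase CASP4 (1.17 and 0.87) and CASP1 (0.69 and 0.90), the last named after its value was seen.

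Of 12 genes for signalling and turnover of chemokine receptors 8 rose and 4 fell, and under the offsets 7 rose and 3 fell. The cytokine MIF (1.503 and 0.11), its receptor CD74 (0.95 and -0.035), the G-protein subunit GNAI2 (0.92 and 0.15) and the receptor kinase GRK6 (1.69 and 0.96, overlapping F12) rose as tested. ITCH, the ubiquitin ligase that sends CXCR4 to degradation, fell from 90.8 ± 1.40 to 30.96 ± 1.51 CPM (-1.55 and -0.39). GNAI1 fell as tested but stood above 0 under the offsets (-0.95 and 0.51).

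Of 14 genes that control AU-rich messages 10 fell and 3 rose, and under the offsets 9 fell and 3 rose. The roquin gene RC3H2 (-2.36 and -1.08), the RNA-binding TIA1 (-1.73 and -0.61), the deadenylase scaffold CNOT1 (-1.11 and -0.21) and the stabilising factor ELAVL1 (-0.85 and -0.17) fell. The decay factors ZC3H12A (0.62 and -0.18) and KHSRP (0.12 and -0.24) rose as tested but lay below 0 under the offsets, and KHSRP was at -0.20 with scaling by library size alone.

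Among 12 transcription factors and cofactors of cytokine promoters 7 fell and 5 rose, and under the offsets 9 fell and 2 rose. NFKBIZ, a nuclear cofactor of NF-kB, fell from 72.7 ± 2.68 to 16.7 ± 0.158 CPM (-2.13 and -1.73), and HIF1A from 492 ± 5.98 to 43.2 ± 2.92 CPM (-3.50 and -2.69). SP1 fell less under the offsets (-1.13 and -0.25). The NF-kB subunit RELA (0.77 and 0.059), the cofactor BCL3 (1.42 and 0.22) and the AP-1 subunit FOSL1 (0.90 and -0.12) rose as tested. REL (-2.28 and -0.89) and the inhibitor gene NFKBIA (-0.21 and -0.91), named after their values were seen, fell.

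**Figure D4:**
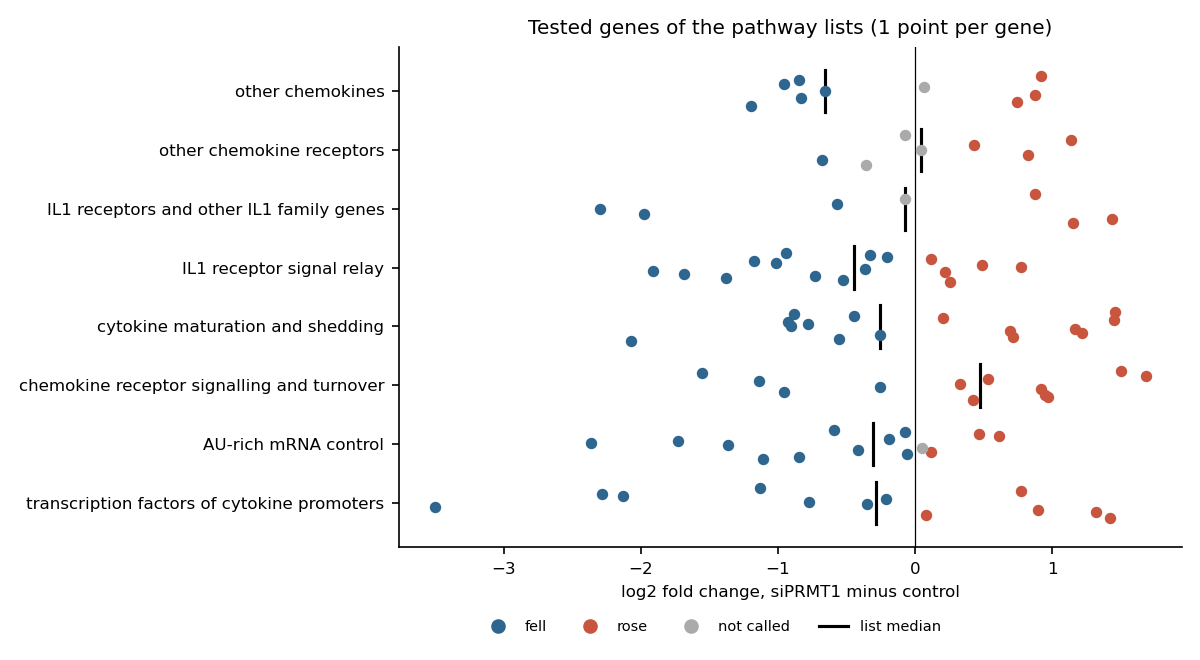
Each point is the log2 fold change of 1 tested gene of the 8 pathway lists, blue where it fell, red where it rose and grey where it did not pass the test, with the list median as a black bar. In this fit without offsets both directions occur in every list, and the medians lie between -0.65 for the other chemokines and 0.47 for receptor signalling and turnover.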

How the data were processed

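RNA from 6 samples was sequenced as stranded mRNA libraries, per the labels' protocols. The authors deposited unnormalized read counts, whole numbers for each gene, per the file headers. Per the submitters' processing notes, the build was hg38 and the tools included STAR 2.7.6a, fastp 0.23.2, edgeR 3.40.2, Subread 1.5.1 and featureCounts. No source used here gives the annotation, the strand setting or how multi-mapping and duplicate reads were handled. The deposited gene length exceeds the gene's span for 211 genes, CXCL8 among them, so lengths and GC content came from canonical transcripts of GENCODE release 44 (20472 of 20532 identifiers found; 13694 of 13710 tested genes).

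Genes were filtered with filterByExpr, scaled by TMM and compared with the quasi-likelihood test of edgeR 4.0.16 in R 4.3.3, checked on simulated data, with Benjamini-Hochberg adjustment over all tested genes. The simulation changed few genes, evenly in both directions, with no GC trend and a larger dispersion than was fitted here. It therefore does not cover data in which most genes differ. Log2 fold changes are siPRMT1 minus control, and SEs follow from the F statistic. The GC and length offsets are splines with 5 degrees of freedom per sample, centred on the median gene. Tested genes without a canonical transcript received the centring alone, so their values with the offsets are not corrected for GC content or length. Alternatives were RLE, upper-quartile and library-size scaling, DESeq2 1.42.0, limma-voom (limma 3.58.1), robust estimation, other filters, a replicate block, and omission of each sample in turn. Replicates within a group differed by slightly more than sampling noise (chi-square over its degrees of freedom from 1.05 to 1.38), and all were kept. The common dispersion of 9.77e-05 is the lowest value the search allows.

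The members and lists were chosen with earlier results of these data known. Named are the 10 members, PRMT1, and for every list, at most 4 called genes ranked by adjusted p (mean of 5 CPM or more) plus at most 2 that moved against the majority. Neighbours of the members, their known partners and markers are given by position or role, and others are marked as named after their values were seen. Sequences were read with Python 3.11.15; CXCL16 and ACKR3 were not matched in the promoter table.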

Additional observations from a re-analysis of the deposited data

How the results depend on the processing

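CXCL2, CXCL3, CXCL8, IL1A, IL1B and ACKR3 kept their direction and call under all 17 alternatives. CXCL1 lost its call with RLE scaling (-0.057) and DESeq2 (-0.057), and ran from -0.079 to -0.052 with 1 sample left out; CXCR4 gained a call with library size alone (-0.36). With the GC and length offsets, CXCL16 stood at -0.079 (-0.0799 with the replicate block added) and CCL20 at 0.20 (0.22), and no member rose (0 in both fits, against 1). CCL20 also stood at 0.075 without the second siPRMT1 sample (leave-one-out range from -0.12 to 0.075). With the offsets and with block and offsets, these pathway genes turned: PELI3 -0.076 and -0.075, IRAK1 -0.387 and -0.387, CD74 -0.0352 and -0.0354, GNAI1 0.514 and 0.518, ZC3H12A -0.179 and -0.178, KHSRP -0.244 and -0.242, FOSL1 -0.1192 and -0.1188. Library size alone turned IRAK1 (-0.0596) and KHSRP (-0.20), and gave 37.7% instead of 49.6% of called genes as rising. Of the ratios, CXCL8 to CXCL1 was -0.76 with the offsets, and IL1A to IL1B was 0.63 with them and ran from -0.147 to 0.0601 with 1 replicate number left out. In that way CXCL1 to CXCL2 ran from 0.629 to 0.860, CXCL1 to CXCL3 from 1.27 to 1.76 and CXCL2 to CXCL3 from 0.415 to 1.13, lowest without replicate 3. Among lists, the rising relay genes numbered 2 with library size alone and 3 with the offsets (5 before), rising transcription factors 2 with the offsets (5), rising AU-rich factors 1 with library size alone (3), rising other chemokines 1 with the offsets (3), falling receptors 2 without the filter (1; from 0 to 2 with 1 sample left out) and falling IL1 family genes 6 without the filter (3). The cause of these shifts was not tested.

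No pairing by replicate number was seen: deviations from the group means correlated at -0.017, -0.027 and -0.017 between same-numbered samples over 10052 genes. Those deviations were close to sampling noise, so this correlation could hardly detect a pairing. With the replicate block 6156 genes fell and 6063 rose, against 6165 and 6078, and no call among the 10 members changed. Counts of at most 50 per library limit CCL20 and ACKR3.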

Other observations

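The 3 siPRMT1 libraries differed in CXCL3 by more than counting noise: 81, 103 and 46 counts gave a chi-square over its degrees of freedom of 6.40, where counting noise alone gives 1 on average. The other group values of the 10 genes lay between 0.168 and 2.89, the highest being IL1B in the siPRMT1 libraries. Its neighbour CXCL2 had 226, 232 and 220 counts in the same libraries (1.16).

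In counts not scaled between libraries, the 10 genes together took 0.0568% of the total in control and 0.0241% in siPRMT1 libraries. The mean TMM factor was 1.12 in control and 0.896 in siPRMT1 libraries, so the scaled fall is smaller. CXCL8 gave 6411 of the 11170 counts of these genes in the first control library and 1407 of 4347 in the first siPRMT1 library. CXCL8 made up 65.5% of the counts of the 4 CXCR2 ligands in each control library and between 39.5% and 40.5% in the siPRMT1 libraries.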
